A study of Mus musculus with 8 samples.

Results

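UDP-glucuronosyltransferases (UGTs) of liver are described here from RNA of 4 NZO and 4 B6 mice, hybridised to 1-colour Agilent arrays with 1 array for each mouse. NZO/HiBomDife is an inbred obese and diabetes-prone strain, and C57BL/6 (B6) is the lean strain it was compared with; all 8 mice were males aged 6 weeks on a diet with 45% fat, so diet, sex and age are shared by both strains and neither strain was measured on another diet. A list of 10 genes, Ugt1a1, Ugt2a3, Ugt2b1, Ugt2b5, Ugt2b34, Ugt2b35, Ugt2b36, Ugt2b37, Ugt2b38 and Ugt3a2, was searched by gene name among the 34836 gene names of the array. Of these 10 genes, 9 were found, with 11 probes, and no row carries the name Ugt1a1. A level is the log2 processed signal of a probe minus the 75th percentile of its array, so that a level of 0 is the 75th percentile, and a strain difference is a difference of 2 mean levels of the same probe. Levels of different UGT probes were not ranked against each other, because probes differ in how well they bind; the summed signals of marker lists below add up probes and mostly follow their brightest one.

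UGTs sit in the membrane of the endoplasmic reticulum and attach glucuronic acid, taken from UDP-glucuronic acid, to bilirubin, bile acids, steroid hormones and drugs, which makes these compounds water-soluble for export into bile and urine. Hepatocytes are a main site of this reaction. The Ugt1a enzymes come from 1 locus in which alternative first exons, each with its own promoter, join a set of shared last exons, whereas the Ugt2b enzymes are separate genes in a tandem cluster and the Ugt3a enzymes are known to use sugars other than glucuronic acid. Ugt1a1 is the bilirubin-conjugating form, and Ugt2b enzymes act on steroids, bile acids and many drugs.

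All 5 hepatocyte markers (Alb, Ttr, Apoa1, Cps1 and Tat) were above background on the 8 arrays and 0 of 5 passed the test, with Alb at 11.18 to 11.24 in NZO and 10.66 to 11.17 in B6. Other cell types differed between strains or arrays. Of the biliary markers, 2 of 4 tested were lower in NZO, the brightest being Spp1, and their summed signal (in units of the 75th percentile) was 1.71 to 2.55 in NZO and 3.46 to 5.52 in B6. Of the red cell markers, 2 of 4 were higher in NZO, led by Hba-a1, with sums of 293 to 470 in NZO and 155 to 208 in B6. Skeletal muscle markers stood out on 1 array, NZO 007, with a sum of 18.8 against 0.212 to 0.401 on the other NZO arrays and 0.425 to 6.18 in B6. The leukocyte markers also had their highest sum in NZO 007 (19.0, against at most 13.6 on the other 7 arrays), led by Cd3e at 3.61 there and 1.84 to 2.75 elsewhere. Of the 6 leukocyte probes, 1 was called lower in NZO, that of Itgax (adjusted p = 0.0358), which was above background on 2 of 4 NZO arrays. The exocrine pancreas markers Cela3b, Pnlip, Cpa1 and Prss2 were above background on none of the 8 arrays, while Ctrb1 (-0.23 to 0.91) and Cela1 were above it on all 8. Of 7 adipocyte probes, those of Adipoq, Plin1 and Lep were above background on none of the 8 arrays, while 4, of Cidec, Fabp4 and Car3, were above it on all 8, with Car3 at 8.66 to 9.32. In whole liver RNA, fewer cells of a type and less RNA per cell cannot be told apart. NZO 007 also had the lowest mean correlation with the other arrays of its strain (0.98, against 0.985 to 0.987).

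The 7 Ugt2b genes and Ugt2a3 lie in 1 cluster on chromosome 5, in the order Ugt2b34, Ugt2b1, Ugt2b35, Ugt2b36, Ugt2b5, Ugt2b37, Ugt2a3 and Ugt2b38, from Ugt2b34 at chr5:86889770-86906937 to Ugt2b38 at chr5:87409939-87424203 (GRCm38.p6). The reference promoters of all 7 Ugt2b genes shared a stretch of 13 bases, sought after the sequences had been seen as the 13 letters with the most positions equal in all 7. It reads GTTANANNTTAAC, with 10 letters fixed. The windows below show it in capitals with the surrounding bases, 5′ to 3′ on the strand of the gene, from the RefSeq promoter table (GRCm38.p6, C57BL/6J reference); whether NZO carries the same bases was not analysed here.
Ugt2b34 (chr5:86906975-86907024): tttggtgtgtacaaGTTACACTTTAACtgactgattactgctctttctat
Ugt2b1 (chr5:86926557-86926606): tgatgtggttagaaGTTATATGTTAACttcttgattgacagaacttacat
Ugt2b35 (chr5:87000776-87000825): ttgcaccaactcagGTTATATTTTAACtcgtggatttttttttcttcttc
Ugt2b36 (chr5:87092584-87092633): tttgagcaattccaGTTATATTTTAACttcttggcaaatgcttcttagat
Ugt2b5 (chr5:87140366-87140415): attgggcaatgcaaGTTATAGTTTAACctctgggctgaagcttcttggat
Ugt2b37 (chr5:87254831-87254880): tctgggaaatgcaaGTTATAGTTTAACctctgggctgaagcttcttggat
Ugt2b38 (chr5:87424232-87424281): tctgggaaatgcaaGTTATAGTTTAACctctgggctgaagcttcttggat
The motif began between 89 bases (Ugt2b1) and 61 bases (Ugt2b5) before the annotated start. Searched on both strands over 250 bases before and 50 after each start, these letters were found for 29 of 27025 genes (0.107%), the 7 Ugt2b genes that defined them included. The windows of Ugt2b37 and Ugt2b38 are identical, and over the 250 bases before the start these genes were 89.6% identical, Ugt2b5 and Ugt2b38 84.8% and Ugt2b5 and Ugt2b37 79.6%, while Ugt2b34 reached at most 55.2%, with Ugt2b1. In the window of Ugt2a3 and in that of Ugt1a1 the closest stretch on the strand of the gene differed from the motif at 2 of its fixed letters. The table has 9 of the 10 genes and no entry for Ugt3a2. A match of letters is a description and was not tested as a binding site.

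All 11 probes were above background on all 8 arrays, and none was saturated. Of the 11 probes, 0 were called higher and 1 was called lower in NZO, where a call needs an adjusted p of at most 0.05 by limma over all 27639 probes tested and a log2 difference of at least 0.7. Among all probes tested 4.33% were called higher and 5.28% lower, so that 1 of 11 probes (9.09%) is a share near the background. The median difference of the 11 probes was 0.00, with a median size of 0.13, against 0.01 and 0.24 over all probes tested. In all probes, 45.1% of the calls were increases; with the deposited raw intensities, which are not scaled between arrays, this was 28.8%, and the median difference of all probes moved to -0.15.

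**Figure D1:**
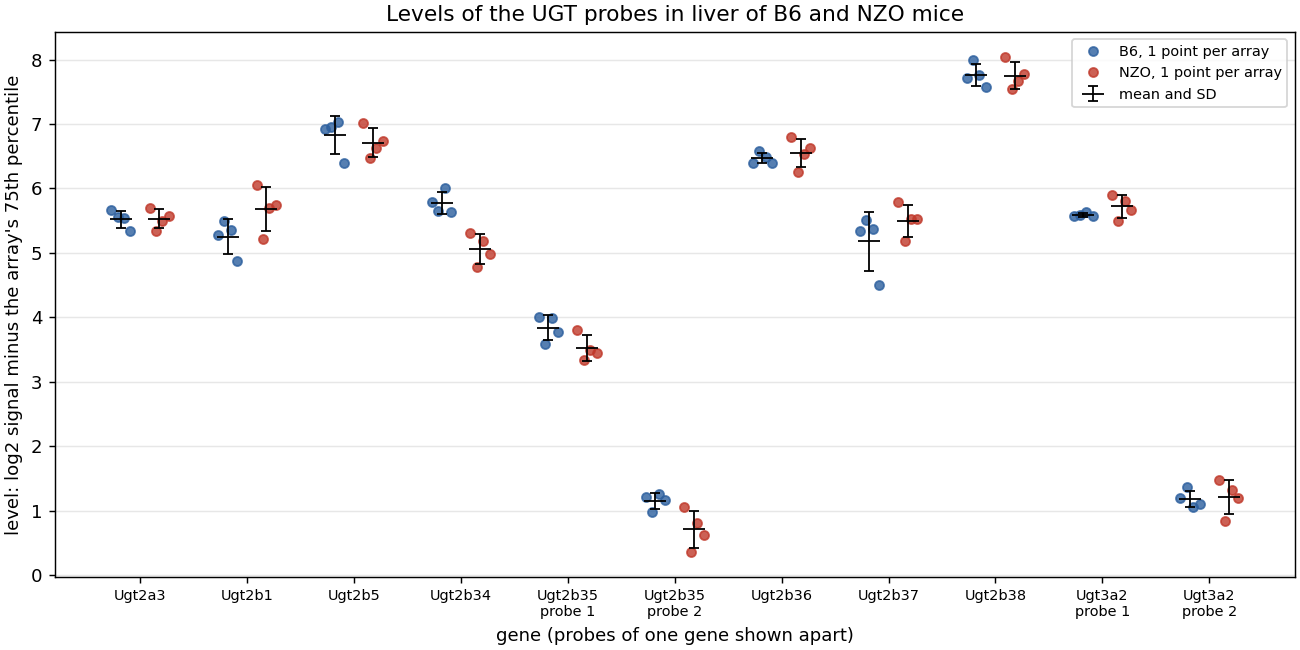
Level of the 11 UGT probes (y axis, log2 signal minus the 75th percentile of the array) in each of the 4 B6 (blue) and 4 NZO (red) arrays, with the mean and SD; probes are on the x axis and heights are not comparable between probes. The strains are apart for Ugt2b34, with 4.78 to 5.31 in NZO and 5.64 to 6.00 in B6, and overlap for the other 10 probes. How often strains are apart over all probes was not counted, and uncalled probes such as those of Alb and Ttr were apart too.

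Ugt2b34, the first gene of the cluster, was the member called lower in NZO. Its probe (chr5:87318849-87318908 on mm9, the build of the array files) had levels of 5.31, 4.78, 5.18 and 4.98 in NZO 003, 007, 009 and 011. In B6 009, 010, 011 and 015 the levels were 5.79, 5.65, 6.00 and 5.64. The highest NZO array was thus below the lowest B6 array. The NZO mean of 5.06 ± 0.23 and the B6 mean of 5.77 ± 0.17 (SD, n = 4 each) gave a difference of -0.71 (SE 0.14, 95% interval -1.04 to -0.37, limma adjusted p = 0.013), or 1.63-fold lower signal in NZO. The difference is just past the fold limit, so the call ended when NZO 007 (-0.61), NZO 011 (-0.68), B6 011 (-0.63) or B6 009 (-0.70) was left out, although the adjusted p of these fits was 0.0244 to 0.0403. Within slide 1, the only slide with both strains (NZO 003 against B6 010 and B6 015), the difference was -0.34. With slide as a fixed block, here and for every probe below, the difference comes from these slide 1 arrays alone. Ugt2b34 was not called with that block. Within the scan days its difference was -0.49 (3 NZO and 2 B6 arrays) and -1.11 (1 NZO and 2 B6 arrays).

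**Figure D2:**
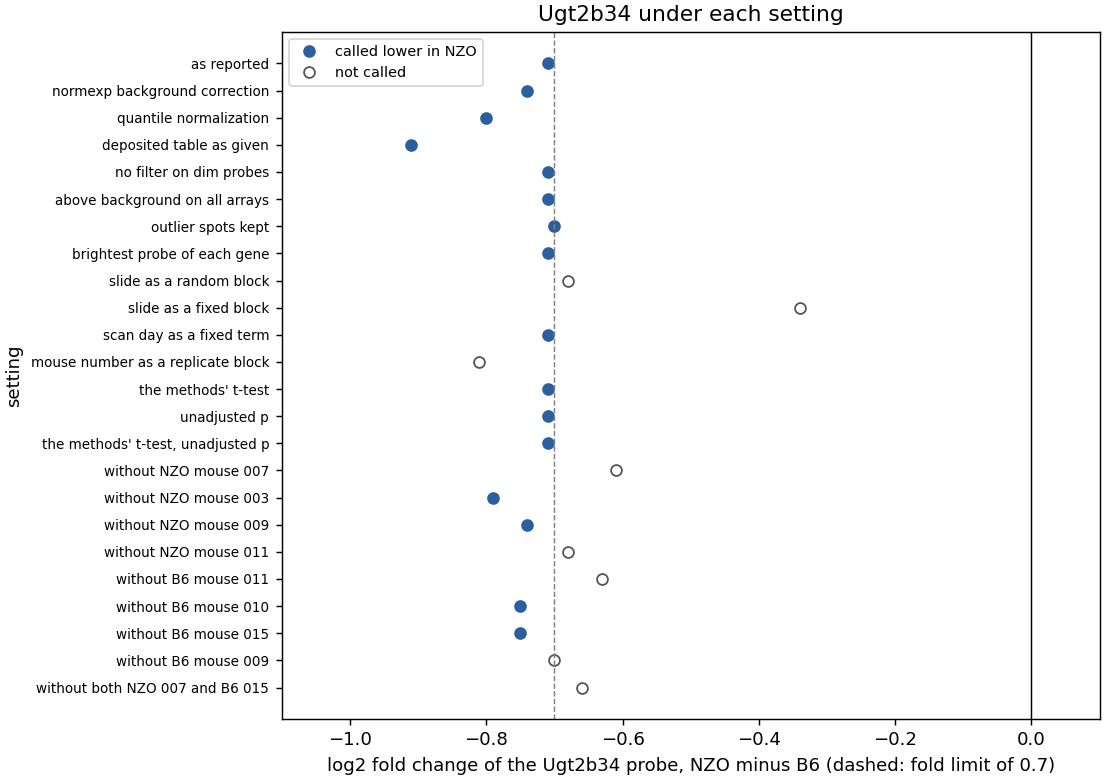
Log2 difference of the Ugt2b34 probe, NZO minus B6 (x axis), as reported and under 23 other settings (y axis), filled where the call rule was met. All values are below 0, from -0.91 with the deposited raw intensities to -0.34 with slide as a fixed block, and 15 of the 23 other settings called it lower.

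Ugt2b35 was measured by a pair of probes, and neither passed the test. Probe 1 (chr5:87441721-87441780 on mm9) had a mean of 3.52 ± 0.20 in NZO and 3.84 ± 0.20 in B6 (SD, n = 4 each), a difference of -0.32 (95% interval -0.65 to 0.01, adjusted p = 0.188). Probe 2 (chr5:87440554-87440613 on mm9) had a mean of 0.71 ± 0.29 in NZO and 1.15 ± 0.12 in B6 (SD, n = 4 each), a difference of -0.44 (95% interval -0.80 to -0.09, adjusted p = 0.104). Both probes were negative, and the arrays of the strains overlapped in both. With the deposited raw intensities the adjusted p was 0.0429 for probe 1 and 0.024 for probe 2, still short of the fold limit. With slide as a fixed block the differences were 0.12 and -0.02.

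Ugt2b1, the neighbour of Ugt2b34, had the largest positive difference of the 11 probes, and it did not pass the test. Levels were 6.05, 5.22, 5.70 and 5.74 in NZO 003, 007, 009 and 011. In B6 009, 010, 011 and 015 they were 5.28, 5.50, 5.35 and 4.88. NZO 007 fell within the range of B6, while the other 3 NZO arrays were above all B6 arrays. The means were 5.68 ± 0.34 and 5.25 ± 0.27 (SD, n = 4 each), a difference of 0.43 (95% interval -0.04 to 0.89, adjusted p = 0.216). It was 0.30 without B6 015 or without NZO 003, 0.17 with the deposited raw intensities, and 0.64 and -0.10 within the scan days. With slide as a fixed block it was 0.86, which sets NZO 003, the highest NZO array, against B6 010 and B6 015. It was 0.58 without NZO 007 (adjusted p = 0.0725) and 0.45 without both NZO 007 and B6 015 (adjusted p = 0.0991).

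Ugt2b37 had the widest spread among B6 arrays. Its B6 levels were 5.34, 5.51, 5.37 and 4.50 in B6 009, 010, 011 and 015, so that B6 015 was far below the other 3. The NZO levels were 5.79, 5.18, 5.53 and 5.52 in NZO 003, 007, 009 and 011. The difference was 0.32 (95% interval -0.22 to 0.86, adjusted p = 0.42). It was 0.10 without B6 015, 0.43 without NZO 007, 0.20 without both and 0.78 with slide as a fixed block (adjusted p = 0.388). Ugt2b5, the gene before it in the cluster, showed the same low array, with 6.39 in B6 015 and 6.93 to 7.03 on the other B6 arrays, and a range of 6.47 to 7.01 in NZO. Its difference was -0.12 (95% interval -0.53 to 0.29, adjusted p = 0.706). The probes of Ugt2b5 and Ugt2b37 differ by 11 edits over their 60 bases and share a run of 18, so each may bind some transcript of the other gene, and how much was not tested.

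Within the chromosome 5 cluster, Ugt2b36, Ugt2b38 and Ugt2a3 lay closest to equal between the strains. Ugt2b36 ranged from 6.26 to 6.80 in NZO and from 6.40 to 6.58 in B6, a difference of 0.08 (95% interval -0.21 to 0.38, adjusted p = 0.716). Its probe spans an intron and the files also list a transcript of Ugt2b37 for it. Ugt2b38 ranged from 7.55 to 8.04 in NZO and from 7.58 to 7.99 in B6, a difference of -0.01 (95% interval -0.32 to 0.31, adjusted p = 0.985). Ugt2a3, the member of the cluster outside the Ugt2b group, ranged from 5.34 to 5.70 in NZO and from 5.34 to 5.66 in B6, a difference of 0.00 (95% interval -0.26 to 0.27, adjusted p = 0.991). The intervals of these 3 probes lie inside the fold limit of 0.7 in both directions.

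Ugt3a2 lies apart from the other members, on chromosome 15 (chr15:9335551-9370955, GRCm38.p6). Probe 1 ranged from 5.49 to 5.90 in NZO and from 5.57 to 5.64 in B6, a difference of 0.13 (95% interval -0.12 to 0.38, adjusted p = 0.489). Probe 2, in an earlier part of the transcript, gave 0.03 (95% interval -0.32 to 0.38, adjusted p = 0.917). The 2 probes thus gave differences within each other's interval.

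**Figure D3:**
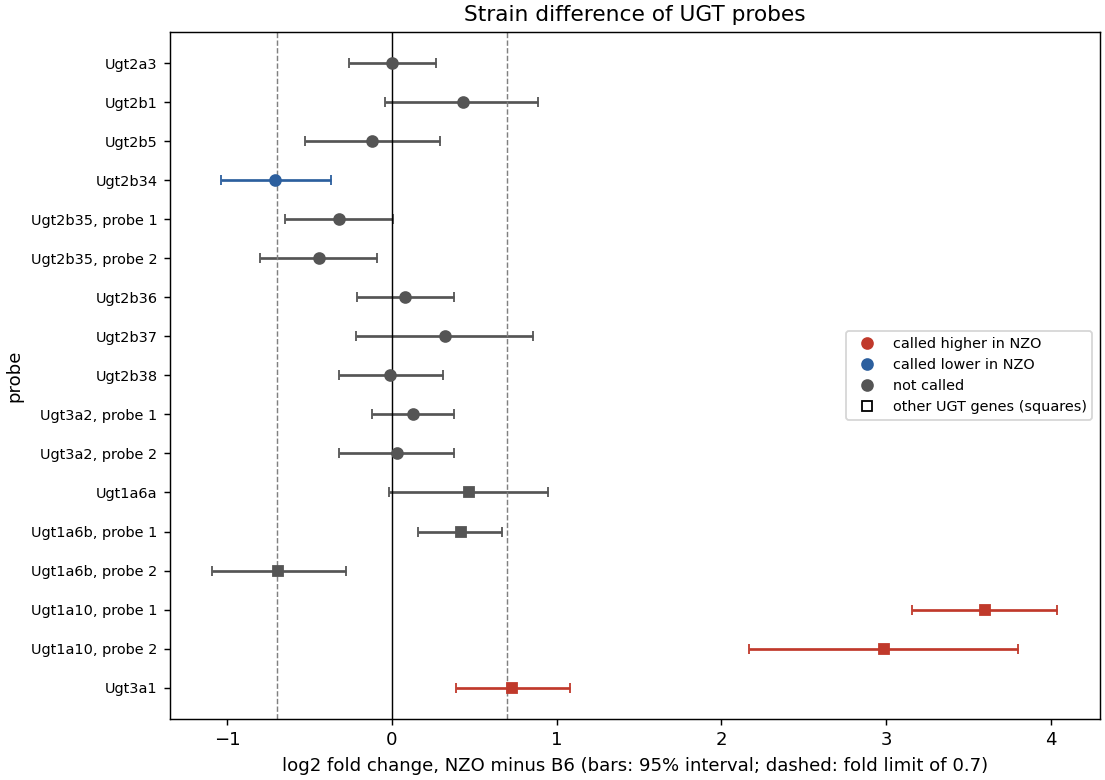
Log2 difference between NZO and B6 (x axis) with its 95% interval for the 11 UGT probes (circles) and 6 tested probes of other UGT genes (squares), one per line on the y axis, with the fold limit of 0.7 dashed. Of the members only Ugt2b34 (-0.71) is past the limit, while probe 1 (3.60) and probe 2 (2.99, above background on 2 of 4 B6 arrays) of Ugt1a10 lie far to the right.

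Among the NZO arrays, the same array was lowest and the same array highest for every member probe. NZO 007 was the lowest NZO array for 11 of 11 probes and NZO 003 the highest for 11 of 11. B6 015 was the lowest B6 array for 6 of 11 probes and the highest for 0, while B6 010 was the lowest for 2 and the highest for 5, and B6 011 the lowest for 1 and the highest for 4. The median deviation from the strain mean was -0.28 in NZO 007, 0.28 in NZO 003 and -0.13 in B6 015. Over all 24451 probes above background on the 8 arrays these medians were -0.08, 0.08 and -0.01, and NZO 007 was the lowest NZO array for 41.0% of them. For the 5359 of them with a mean level of at least 3, the medians were -0.07, 0.12 and 0.00. Among these brighter probes NZO 007 was the lowest NZO array for 40.5% and NZO 003 for 5.9%. Over the 8 arrays, which all pairs of probes share, the correlation of the deviations was above 0 for 55 of 55 pairs, with a median of 0.69 and a range from 0.29 to 0.95 (Ugt2b5 with Ugt2b37). The mean was 0.69, against 0.04 over all pairs of the 24451 probes. A mean over pairs of the brighter probes was not computed. Without NZO 007 the median of the member pairs was 0.51, and 54 of 55 pairs were above 0. By strain, all 55 pairs were above 0 among the 4 NZO arrays (median 0.94) and 41 of 55 among the 4 B6 arrays (median 0.37). The 5 hepatocyte markers did not share 1 order in these arrays. Cps1, an enzyme of the urea cycle, was at 5.87 in NZO 007 and 6.09 to 6.46 on the other NZO arrays, and at 5.89 in B6 015 and 5.95 to 6.53 on the other B6 arrays. Tat, which breaks down tyrosine, was at 5.65 in NZO 007 and 5.98 to 6.39 on the other NZO arrays, but highest in B6 015 among B6 (6.60). Ttr, which carries thyroid hormone, was highest in NZO 007 (9.82, against 9.76 to 9.79) and in B6 015 (9.69). Apoa1, a protein of high-density lipoprotein, was at 8.98 in NZO 007, within the range of its strain, and highest in B6 015 among B6 (9.04). Alb was within the range of the strain on both arrays, at 11.20 in NZO 007 and 11.07 in B6 015. The part of the muscle, leukocyte and hepatocyte marker signals of NZO 007 in its low UGT levels was not tested.

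**Figure D4:**
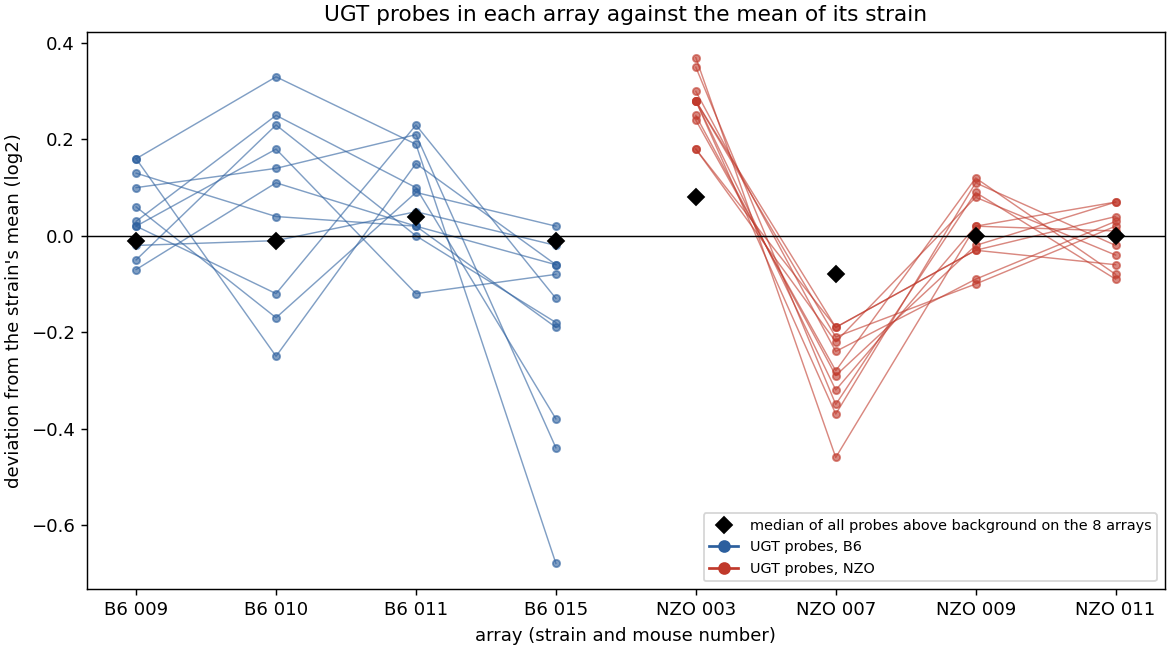
Deviation of the 11 UGT probes from the mean of their strain (y axis, log2) in each array (x axis), 1 line per probe, with the median over 24451 probes as a diamond. All 11 probes are below 0 in NZO 007 and above 0 in NZO 003, and the lowest point in B6 015 is Ugt2b37.

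For Ugt1a1 (chr1:88211959-88220002, GRCm38.p6), 1 probe lists its transcript, but this probe is named for Ugt1a6a, lies in the last part of the locus and lists transcripts of several Ugt1a genes, so it does not single out Ugt1a1. It had a mean of -2.48 ± 0.41 in NZO and -2.95 ± 0.21 in B6 (SD, n = 4 each), a difference of 0.47 (95% interval -0.02 to 0.95, adjusted p = 0.198). Probe 1 of Ugt1a6b, which also lies in the shared last part, had 8.07 to 8.46 in NZO and 7.79 to 7.96 in B6, with no overlap, a difference of 0.42 (95% interval 0.16 to 0.67, adjusted p = 0.0389) that was short of the fold limit.

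Of the tested probes before the last part of the locus, those of Ugt1a10 were called higher in NZO and probe 2 of Ugt1a6b was not called. The exons of these probes were not analysed here. Probe 1 of Ugt1a10 (chr1:89952780-89952839 on mm9), which the files also list for the transcript of Ugt1a9, had 5.19, 4.31, 4.86 and 4.89 in NZO 003, 007, 009 and 011. In B6 009, 010, 011 and 015 it had 0.97, 1.42, 1.17 and 1.28. No B6 array came near the NZO arrays, and the signal was 12.2-fold higher in NZO, a difference of 3.60 (SE 0.19, 95% interval 3.16 to 4.04, adjusted p = 1.11e-05). Probe 2 of Ugt1a10, next to it (chr1:89952720-89952779), was above background on all 4 NZO arrays and on 2 of 4 B6 arrays. It was called higher (adjusted p = 0.000852), but the B6 mean rests partly on values at background and the size is not settled, with fitted differences of 2.99 as processed here, 1.36 with the deposited raw intensities and 1.01 with normexp background correction. A further probe just downstream, named LOC100048662 and picked for its place with its values known, gave 3.61 (SE 0.22, adjusted p = 2.39e-05), which fell to 1.70 with normexp background correction and 2.13 with the deposited raw intensities. Probe 2 of Ugt1a6b, further along the locus (chr1:90004249-90004308 on mm9), had 2.41 to 3.07 in NZO and 3.33 to 3.83 in B6, a difference of -0.69 (SE 0.18, adjusted p = 0.036), just short of the fold limit. Fold limit and adjusted p were both met under 5 of 22 other settings. With slide as a fixed block it was -0.54 (adjusted p = 0.294). Ugt1a6b belongs to the forms that act on simple phenols.
The 3 probes of named UGT genes from this stretch are shown in full, 5′ to 3′, because they are the sequences behind these values.
Ugt1a10 probe 1: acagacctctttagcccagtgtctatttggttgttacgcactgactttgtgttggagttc
Ugt1a10 probe 2: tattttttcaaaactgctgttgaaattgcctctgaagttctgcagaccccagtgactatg
Ugt1a6b probe 2: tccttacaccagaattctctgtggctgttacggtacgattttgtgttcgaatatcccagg
Whether NZO carries these bases was not analysed here, so a difference in binding to the probe and a difference in transcript cannot be told apart for any single probe.

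**Figure D5:**
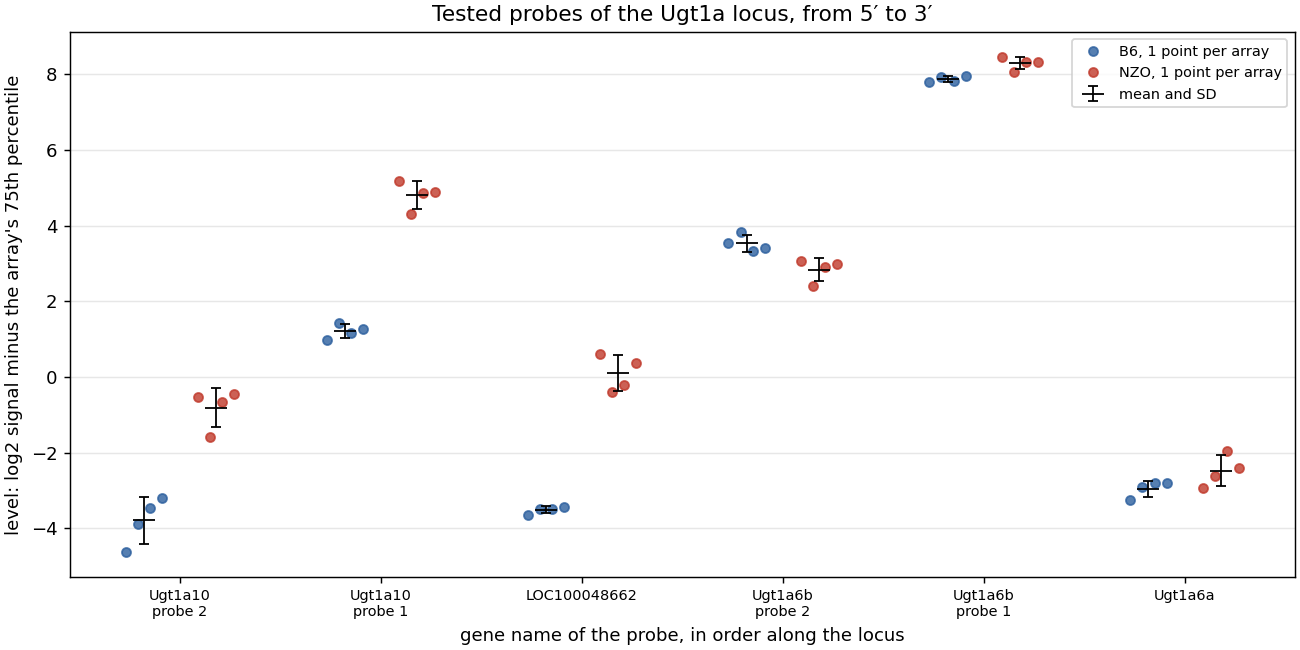
Level of the 6 tested probes of the Ugt1a locus, in order from 5′ to 3′ (x axis), in each B6 (blue) and NZO (red) array (y axis, log2 signal minus the 75th percentile of the array), with the mean and SD. The 3 probes on the left are higher in every NZO array, probe 2 of Ugt1a6b is lower in every NZO array, and probe 1 of Ugt1a6b, in the shared last part, is higher by 0.42.

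Ugt3a1, the neighbour of Ugt3a2 on chromosome 15 (chr15:9279822-9315038, GRCm38.p6), was called higher in NZO. Its levels were 4.80, 4.36, 4.55 and 4.62 in NZO 003, 007, 009 and 011. In B6 009, 010, 011 and 015 they were 4.03, 4.06, 3.56 and 3.74. The strains did not overlap, and the difference was 0.73 (SE 0.15, 95% interval 0.39 to 1.08, adjusted p = 0.0132). Among the settings in which the call ended were those without NZO 003 (0.66), B6 011 (0.64) or B6 015 (0.70), and those with normexp background correction (0.59), quantile normalization (0.67) or scan day as a term (0.68), with slide as a fixed block (0.90, adjusted p = 0.0979), and with the deposited raw intensities (0.43, adjusted p = 0.1). Its promoter holds the motif of the Ugt2b genes, here in capitals, starting 130 bases before the start used in the promoter table (GRCm38.p6), which is not the first base of the gene as given above.
Ugt3a1 (chr15:9279685-9279734): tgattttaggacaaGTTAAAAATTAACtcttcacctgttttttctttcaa
Of the 12 other UGT genes listed, 6 were on the array by name and 4 were tested, with 3 of 6 probes called higher and 0 lower. Ugt2a1, known from the olfactory epithelium, and Ugt8a, which makes galactosylceramide, were not above background on all arrays of either strain and were not tested.

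Genes that make UDP-glucuronic acid and carry it into the endoplasmic reticulum did not pass the test in any of 8 probes, with differences from -1.01 to 0.33 and a median of -0.14. Among them were Pgm1 (-0.31, adjusted p = 0.354) and Pgm2 (-0.33, adjusted p = 0.0632), both phosphoglucomutases, and the nucleotide sugar transporter genes Slc35b1 (0.33, adjusted p = 0.134) and Slc35d1 (0.26, adjusted p = 0.19, and -1.01, adjusted p = 0.301, at another probe that was above background on 2 of 4 NZO arrays and was called lower with slide as a fixed block, -1.59, adjusted p = 0.0297). Of 8 probes for the use of glucuronate, with ascorbate synthesis, 0 were called, with a median of 0.04. The largest difference was that of Sord (-0.50, adjusted p = 0.0121), with no overlap between strains but short of the fold limit. With the deposited raw intensities 1 probe of this list was called lower. Other examples were Akr1a1 (0.10) and Gulo (0.04), which act in ascorbate synthesis, Dcxr (0.05 and 0.11) and Miox (0.28).

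Of 9 probes for the removal, export and re-uptake of glucuronides, 2 were called lower and 0 higher in NZO, with a median of -0.16. The share called lower was 22.2%, against 5.28% of all probes tested. Abcc3, which exports glucuronides across the sinusoidal membrane into blood, had 2.19 to 2.26 in NZO and 3.30 to 3.76 in B6. The arrays of the strains did not overlap, and the difference was -1.25 (SE 0.12, adjusted p = 0.000264), or 2.37-fold lower in NZO. Abcc3 is also known from bile duct cells, whose markers Spp1 (0.66 ± 0.25 in NZO and 1.56 ± 0.42 in B6, SD, n = 4 each) and Sox9 (-2.29 ± 0.45 and -0.82 ± 0.43) were lower in NZO too, and their part in the result was not tested. Slco1a4, an uptake transporter for organic anions, was the other gene called lower, with a difference of -0.93 (SE 0.22, adjusted p = 0.0252). Its call ended when NZO 003, NZO 007, NZO 011, B6 009 or B6 015 was left out, with differences of -0.93 to -0.82 and adjusted p of 0.0506 to 0.0728, with normexp (-0.54) and with slide as a fixed block (-1.18, adjusted p = 0.214). Abcc3 was still called lower with that block (-1.15, adjusted p = 0.044). Abcc2, the exporter into bile (-0.16, adjusted p = 0.32), Abcc4 (0.02), Abcg2 (-0.48, adjusted p = 0.146) and Gusb, which cleaves glucuronides (0.16 and -0.20), did not pass.

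Of 7 probes for the breakdown of haem to bilirubin, 1 was called lower (14.3%, against 5.28% of all probes tested) and 0 higher. Hmox1, the inducible haem oxygenase, differed by -0.93 (SE 0.15, adjusted p = 0.00464) at 1 probe and by -0.24 (SE 0.26, adjusted p = 0.605) at the other, where NZO 007 was at 1.04 and the other NZO arrays at -0.17 to 0.07. Without NZO 007 the differences were -0.96 (adjusted p = 0.011) and -0.51 (adjusted p = 0.0619). With slide as a fixed block the first probe was not called (-0.70, adjusted p = 0.224). Hmox2 (-0.11 and -0.10), and Blvra (0.12 and 0.09) and Blvrb (-0.04), which reduce biliverdin, did not pass.

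Among 18 tested probes of regulators of UGT genes, 2 were called lower (11.1%, against 5.28% of all probes tested) and 0 higher. Both were of Nr1i3 (CAR, a receptor that induces UGT and cytochrome P450 genes in response to drugs). They had differences of -1.04 (SE 0.18, adjusted p = 0.00567) and -1.01 (SE 0.16, adjusted p = 0.00337), with no overlap between strains. With slide as a fixed block neither was called (-1.28, adjusted p = 0.0949, and -1.15, adjusted p = 0.0989). Ahr, the aryl hydrocarbon receptor (-0.05, adjusted p = 0.922), its partner Arnt (0.05 and -0.10), Foxa1 (-0.13) and Foxa2 (0.21 and 0.24) did not pass.

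Of 14 tested probes for other targets of AhR, CAR and PXR, 2 were called higher (14.3%) and 4 lower (28.6%), both Gstm3 probes among the lower. Over all probes tested the shares were 4.33% and 5.28%. The list pools targets of these receptors, and its calls went both ways. Cyp2b10, a cytochrome P450 known as a CAR target, was at 0.14 to 1.72 in NZO and -6.62 to -3.52 in B6, where only 1 of 4 arrays was above background. It was called higher (adjusted p = 0.000483), and no size is given because the B6 mean rests mostly on values at background. Cyp3a11, a main drug-metabolising P450, was higher by 1.55 (SE 0.26, adjusted p = 0.00478) at 1 probe and differed by 0.01 (adjusted p = 0.991) at the other, so its probes disagreed. Gstm3, a glutathione transferase, was lower at both probes, with differences of -1.86 (SE 0.11, adjusted p = 1.58e-05) and -5.82 (SE 0.22, adjusted p = 2.48e-06). These are 3.63-fold and 56.7-fold lower signals, so its probes shared a direction but disagreed in size. Ces2a, a carboxylesterase, was lower, with a difference of -1.20 (SE 0.10, adjusted p = 0.000152), and Tiparp, an AhR target, had differences of -0.74 (SE 0.15, adjusted p = 0.0119) at 1 probe, which was called lower, and of 0.07 (adjusted p = 0.86) at the other. The call of Tiparp ended at -0.69 when NZO 007, B6 009 or B6 015 was left out, and with normexp (-0.39) or the deposited raw intensities (-0.67). With slide as a fixed block Cyp2b10 (adjusted p = 0.0542), Ces2a (-0.98, adjusted p = 0.0596) and Tiparp (-0.38, adjusted p = 0.411) were not called, whereas Cyp3a11 at 1 probe and Gstm3 at both still were. Cyp1a2 (-0.45, adjusted p = 0.0355) and Cyp2c29 (0.50, adjusted p = 0.032) were short of the fold limit, and Alas1 (-0.73 and -0.41) and Nqo1 (-0.02) did not pass.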

How the data were processed

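Total RNA of liver from 4 NZO and 4 B6 mice was labelled with Cy3 and hybridised to Agilent arrays, 1 for each mouse. The authors deposited the intensity of each spot as scanner output of Agilent Feature Extraction (version 11.0.1.1 in the file headers, 9.1 in the labels), with positions on mm9, and a table whose intensity values were those of the raw median signal, within 0.01, at 59305 of 59305 spots of every array. The processed signal, corrected for background by the software and not scaled between arrays, was used here.

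Control spots and spots flagged as outliers (96 to 137 per array) were left out, log2 values were taken, the 75th percentile of each array (118.7 to 158.8) was subtracted and spots of a probe were averaged, with every probe of 60 bases kept separate. A probe was tested when either strain had it well above background in all 4 mice (27639 of 55681). limma 3.58.1 in R 4.3.3 compared the strains without a block, with Benjamini-Hochberg adjustment over all tested probes. The methods' fold limit of 0.7 was kept. Tables were made in Python 3.11.15 (pandas 2.3.3) and plots in matplotlib 3.10.9. Sequences came from the RefSeq promoter table and the probe column of the files. The array count limits precision, nothing in the labels gives the litter or cage of a mouse, and the median raw intensity was 1.72 to 2.00 times its background. The fit was tested on simulated data, where false calls were few and many planted changes, more of the small ones, were missed; the limit it had to pass was lowered after a stricter one had failed.

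Named were all members, the called genes of the other UGT, pathway, regulator and target lists with up to 4 uncalled genes above background on all arrays, in alphabetical order, the 3 largest called changes of each list of sex-biased genes, and the 3 genes most correlated with a called member. The female-biased gene called lower was named in addition. Members and lists were chosen with earlier results of these data known. The value of 1 listed regulator is not reported here and is part of the counts of its list. The alternatives were normexp background correction (offset 50), quantile normalization, the deposited table, other filters on dim probes, outlier spots kept, the brightest probe of each gene, slide, scan day or mouse number as a term, the methods' t-test with Welch correction, unadjusted p-values, and each mouse left out. Leaving out NZO 007 with B6 015, the unadjusted t-test and the list counts under all settings were added after seeing the data.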

Additional observations from a re-analysis of the deposited data

Results flagged for a closer look

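In 1 of 36 groups of 4 arrays among the UGT probes, 1 array stood far from the other 3. It was the Ugt2b5 probe in B6 015, at 6.39 against 6.93 to 7.03, where the gap was 0.833 of the range of the group, just above the limit for 4 values. Chance marks about 1 in 20 groups this way.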

How the results depend on the processing

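Ugt1a10 probe 1 was called higher under all 23 other settings, with 3.26 to 3.84, whereas Ugt2b34 was called lower under 15 and Ugt3a1 called higher under 14. No member was called higher under any setting. The member count of 1 lower fell to 0 with slide as a random block (difference of Ugt2b34 -0.68), with slide as a fixed block and without both NZO 007 and B6 015 (-0.66), and was 0 to 1 when each mouse was left out. Mouse numbers 009 and 011 occur in both strains. Arrays of the same number deviated from their strain means with correlations of -0.29 and -0.03. So few pairs cannot show whether a number stands for shared handling, and the main fit did not pair them. With mouse number as a replicate block 72 probes were called higher and 134 lower in all, and 0 members. That block gave Ugt2b34 -0.81 (limma adjusted p = 0.148) and Ugt3a1 0.79 (limma adjusted p = 0.18). Ugt1a10 probe 2, called under 20 of 21 other settings, had 3.49 with it (limma adjusted p = 0.059). Over all probes, the 1198 increases and 1460 decreases became 615 and 583 with normexp. With the deposited raw intensities there were 575 increases, with slide as a fixed block 497. Decreases numbered 963 with probes above background on all arrays only, and 890 with the methods' t-test (1609 at its unadjusted threshold, with 1291 increases). Leaving out each mouse gave 1055 to 1219 increases and 1221 to 1464 decreases. Of 251 values of members under other settings, 0 called values changed sign, and 24 of 228 uncalled values did. Counts of the other lists reached 0 in at least 1 setting, except the increases of the other UGT genes (1 to 3), of the AhR, CAR and PXR targets (1 to 2) and of the female-biased genes (2 to 8). The causes were not tested. At dim probes, such as probe 2 of Ugt1a10 (1.01 with normexp), signal over background limits the size that can be read.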

Other observations

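Many liver UGT genes and P450 genes are known to differ between male and female mice, so genes with a known sex bias were read in these males. Of 11 tested probes of female-biased genes, 7 were called higher (63.6%) and 2 lower (18.2%) in NZO, against 4.33% and 5.28% of all probes tested. The median difference was 3.63, or 2.08 with the genes at background in B6 set to their lower bound. For a lower bound, the level of a B6 array was replaced by the dimmest level still above background there, unless its own was greater. Hao2, a hydroxyacid oxidase, was at least 41.8-fold higher (adjusted p = 7.42e-07) and Cyp3a44, a P450, at least 63.5-fold higher (adjusted p = 4.29e-06), both at background on all 4 B6 arrays. Cyp3a41b, another P450, was higher by 5.51 (SE 0.23, adjusted p = 2.89e-06). Both lower calls were probes of Cyp2a4, with differences of -1.31 (limma adjusted p = 0.0156) and -1.29 (limma adjusted p = 0.0116). With slide as a fixed block neither Cyp2a4 probe was called. Of 16 probes of male-biased genes, 2 were called higher (12.5%) and 1 lower (6.25%), with a median of 0.06. Mup20, a major urinary protein, was lower at 1 probe, with a difference of -1.85 (SE 0.19, adjusted p = 0.000398), and differed by -0.18 (adjusted p = 0.297) at the other. With slide as a fixed block the first of these was not called (-1.51, adjusted p = 0.0919). Cyp4a12a (1.30, SE 0.16, adjusted p = 0.00115) and Cyp4a12b (1.32, SE 0.18, adjusted p = 0.00193), fatty acid hydroxylases of near-identical sequence that may share signal, were higher in NZO.

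The genes whose levels followed Ugt2b34 most closely over the 8 arrays, among 24451 probes above background on all of them, were Hdac1 (r = 0.993), Celf2 (r = 0.991) and Amd2 (r = 0.988). All 3 were lower in every NZO array than in any B6 array, with differences of -0.48, -0.51 and -0.47, short of the fold limit. These correlations hold the strain difference itself and were picked as the highest.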
